A study of Mus musculus with 10 samples.

Results

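Immediate early transcription factor genes were examined in the lung of mice with ovalbumin-induced asthma. The 10 genes were Fos, Fosb, Jun, Junb, Egr1, Egr2, Egr3, Atf3, Ier2 and Nr4a1, taken by symbol from the deposited FPKM table (mapped fragments counted per kilobase of transcript and scaled by library size). All 10 were present, in 12 transcript rows, among 24394 gene symbols and 66548 rows. Rows of the same gene were summed, which concerned Egr3 alone, with 3 rows. A further 31605 rows were assembled models without a symbol and were assigned to no gene. A mean of at least 1 FPKM over the libraries was reached by 7 members, which were tested together with all other such genes (11205 in total), whereas Fosb, Egr2 and Egr3 were not.

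The lungs came from female BALB/c mice, 8 weeks old when purchased, and each library was labelled as a separate replicate. Control mice received saline and form the Saline group (n = 3). In the OVA group (n = 3) mice were sensitized to ovalbumin with alum by intraperitoneal injection on Days 0 and 7, were challenged intranasally under isoflurane for 4 days from Day 12, and were given oral vehicle. Herb mice (n = 4) underwent the same ovalbumin procedure and received an ethanol extract of Descurainia sophia seeds by mouth (200 mg/kg) on Days 9 to 15. Both ovalbumin groups therefore shared antigen, adjuvant and challenge, and Herb vs. OVA and OVA vs. Saline shared the OVA libraries.

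Immediate early genes are transcribed within minutes of a stimulus, without the need for new protein, because the factors that switch them on are already present and are activated by MAP kinases and other signals. Their transcripts are short-lived. Fos and Jun family proteins pair to form the AP-1 factors, EGR proteins are zinc finger factors that bind GC-rich sites, Atf3 is a stress-induced factor of the ATF/CREB family, Nr4a1 is an orphan nuclear receptor, and Ier2 encodes a small nuclear protein. In lung they respond to stretch, injury, inflammation and also to the handling of tissue after removal.

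The promoter sequences are shown for the members at which the results were directed, in order that their regulatory letters can be compared. RefSeq promoter windows of GRCm38.p6, the assembly named mm10, held entries for 7 members (Fos, Fosb, Jun, Junb, Egr2, Atf3 and Nr4a1). Ier2, Egr1 and Egr3 were not matched. Each window ran from 250 bases before a start site to 50 after it. The 120 bases before the start are given for Fos (chr12:85473770-85473889, plus strand), Jun (chr4:95052223-95052342, minus strand) and Junb (chr8:84978749-84978868, minus strand), 5′ to 3′, with the motifs that were found in capitals.

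Fos: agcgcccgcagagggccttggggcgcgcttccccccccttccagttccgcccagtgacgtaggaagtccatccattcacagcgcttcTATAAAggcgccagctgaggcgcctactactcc

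Jun: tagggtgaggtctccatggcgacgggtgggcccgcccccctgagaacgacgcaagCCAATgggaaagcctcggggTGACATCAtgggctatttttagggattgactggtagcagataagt

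Junb: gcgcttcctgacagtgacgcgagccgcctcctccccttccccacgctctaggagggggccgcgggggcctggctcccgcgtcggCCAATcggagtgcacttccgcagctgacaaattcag

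In Fos the capitals mark TATAAA, the TATA box letters. In Jun they mark CCAAT and TGACATCA, the latter being the AP-1/ATF-like element known from this promoter. In Junb they mark CCAAT. Shorter stretches around the motifs are given for Fosb (chr7:19310077-19310105, minus strand), Nr4a1 (chr15:101266776-101266804, plus strand) and Egr2, which had 5 windows and a CArG box, the binding motif of serum response factor (SRF), in 2 places (chr10:67537484-67537513 and chr10:67537787-67537816, plus strand).

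Fosb: tgacgcaagcGCGGGGGCGggtcccggag

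Nr4a1: gcgtcagtggCGCCCCCGCccctctccat

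Egr2, site 1: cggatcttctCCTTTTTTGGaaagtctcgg

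Egr2, site 2: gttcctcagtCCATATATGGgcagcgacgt

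The capitals in Fosb and Nr4a1 mark the EGR-type motif GCGGGGGCG, read on the other strand in Nr4a1. All motifs were searched on both strands of 32851 promoter windows. Of these windows 1.63% held a CArG box, 2.91% GCGGGGGCG, 13.6% TATAAA, 3.62% TGACATCA and 37.4% CCAAT. The motifs GCGTGGGCG (0.612% of windows), TGACGTCA (1.79%) and TGAGTCA (5.20%) were found in no member window searched. Outside the stretches shown, the windows also held TATAAA at bases 0 to 5 from the Junb start site and CCAAT at bases 5 to 9 from that of Atf3. CCAAT was also found in Egr2, upstream of its second CArG box. TGACATCA and CCAAT were added to the search after the other motifs had been seen. A match describes letters in this window and was not taken as a bound site.

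Before the values, 1 property of the libraries bears on all of them. The estimated share of fragments on protein-coding RefSeq transcripts was 32.95 to 33.3% in Saline, 11.9 to 14.9% in OVA and 19.3 to 25.8% in Herb, while Rn45s, the ribosomal RNA precursor, was at 1201 to 1386 FPKM in Saline, 10014 to 13531 in OVA and 3230 to 7019 in Herb. The median gene was 0.75 lower on the log2 scale in OVA than in Saline as deposited. Estimated depth was 14800000 to 29500000 mapped fragments. Members with a mean of at least 1 FPKM are described as deposited and, apart from the levels of Egr1, after each library was rescaled to a common 75th percentile of gene sums. Overlap between groups was scored for the members and their ratios only. How many of all genes had groups without overlap was not counted, so such a separation is given as a description. Among the surfactant and alveolar type 2 markers, all 5 were above 0 in all libraries and their summed level was 3333 to 4369 FPKM in Saline, 466 to 810 in OVA and 1078 to 1970 in Herb. The 6 endothelial markers, likewise above 0 throughout, summed to 357 to 446 FPKM in Saline, 75.6 to 119 in OVA and 160 to 294 in Herb, and the 5 smooth muscle markers to 27.7 to 35.5, 28.0 to 41.7 and 33.6 to 64.0 FPKM. Single smooth muscle markers differed within that sum. Myh11 was at 1.11, 1.52 and 8.20 FPKM in Saline and 4.27, 12.4 and 6.69 in OVA, and Tagln at 12.1, 9.01 and 6.68 in Saline and 6.69, 7.82 and 5.65 in OVA. The part of the library composition and of these cell types in the results on members was not tested. Fewer cells of a type and less RNA per cell cannot be told apart in such bulk libraries.

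Jun, the main partner of Fos proteins in AP-1, was the most abundant member, with a mean of 26.3 FPKM over the 10 libraries and 930 to 2449 estimated fragments per library. It is a single-exon gene (chr4:95049036-95052222). Its level was 40.1, 29.2 and 37.1 FPKM in the 3 Saline libraries, 13.2, 21.3 and 14.2 in OVA, and 30.9, 32.1, 22.0 and 23.3 in Herb. All OVA libraries lay below all Saline and all Herb libraries as deposited, and Herb overlapped Saline. After rescaling the values were 28.3, 21.9 and 26.9 in Saline, 22.4, 28.5 and 20.4 in OVA and 22.8 to 27.9 in Herb, and the groups overlapped.

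Junb, which forms AP-1 dimers that often restrain Jun, was at a mean of 14.4 FPKM (chr8:84976909-84978748, 1 exon, 357 to 939 estimated fragments). Its level was 13.1, 16.4 and 11.7 FPKM in Saline, 8.16, 22.3 and 14.0 in OVA and 13.2, 17.2, 13.4 and 15.02 in Herb, so that the groups overlapped as deposited and OVA libraries were spread most widely. Rescaled, it was 9.21, 12.2 and 8.49 FPKM in Saline and 13.8, 29.9 and 20.1 in OVA, and every OVA library lay above every Saline library. The 4 Herb libraries lay between 11.96 and 14.7 FPKM and overlapped both other groups.

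Ier2 was at a mean of 10.7 FPKM (chr8:84661331-84662852, 1 exon, 219 to 506 estimated fragments). As deposited it was at 9.52, 10.9 and 9.34 FPKM in Saline, 7.84, 14.3 and 8.88 in OVA and 11.9, 12.9, 10.1 and 11.3 in Herb, with overlapping groups. After rescaling Saline was at 6.72, 8.16 and 6.79 FPKM, OVA at 13.3, 19.1 and 12.8, and Herb between 10.8 and 11.01. On that scale OVA lay highest, Herb in between and Saline lowest, with no overlap, an order that was not counted over all genes.

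Fos, the prototype immediate early gene (chr12:85473890-85477274, 4 exons), was at 2.23, 3.59 and 3.48 FPKM in Saline, 2.02, 1.76 and 0.953 in OVA and 1.57, 2.95, 1.65 and 2.81 in Herb, on 41 to 163 estimated fragments. The OVA libraries lay below the Saline libraries as deposited, and rescaled values of 1.37 to 3.43 FPKM in OVA overlapped those of Saline (1.57 to 2.68). Fos was thus more than an order of magnitude below Jun in the mean of the libraries (2.30 against 26.3 FPKM).

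Atf3 (chr1:191170296-191183333, 4 exons) was at 1.88, 1.48 and 1.36 FPKM in Saline, 0.803, 1.95 and 3.97 in OVA and 2.01, 1.58, 3.54 and 4.38 in Herb. The OVA libraries spanned the whole Saline range and overlapped Herb. After rescaling Atf3 was at 1.33, 1.104 and 0.990 FPKM in Saline, 1.36, 2.61 and 5.70 in OVA and 1.82, 1.34, 3.78 and 4.28 in Herb, so that on that scale all OVA and all Herb libraries lay above all Saline libraries, in places by a narrow margin. Nr4a1 (chr15:101253902-101274795, 7 exons) was at 3.57, 1.44 and 1.69 FPKM in Saline, 1.23, 1.203 and 1.14 in OVA and 1.79, 3.01, 1.59 and 1.88 in Herb. Its OVA libraries were narrowly grouped and lay below the other groups as deposited, but not after rescaling (1.61 to 2.08 in OVA, 1.076 to 2.52 in Saline).

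Egr1 was at 2.26, 0.958 and 1.66 FPKM in Saline, at 0.494 and 4.52 in OVA with the third library listed at 0, and at 4.06 and 2.25 in Herb with 2 libraries listed at 0. An exact 0 may be a failed estimate in this table, since Gapdh, a gene used by every cell, was listed at 0 in 9 of the 10 libraries. Egr1 could thus not be ranked between groups. Egr2 was listed at 0 in 7 libraries and was at 0.506 FPKM in Saline replicate 3, 2.07 in OVA replicate 3 and 0.801 in Herb replicate 2.

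Fosb was between 0.0686 and 0.385 FPKM in all libraries, with 5 to 31 estimated fragments. Egr3 rested on 2 to 10 estimated fragments per library and was between 0.0384 and 0.279 FPKM. In a fit of gene sums without a filter none of Fosb, Egr2 and Egr3 was called in any of the 3 comparisons. There adjusted p in limma was 0.297 for Fosb, 0.600 for Egr2 and 0.482 for Egr3 in OVA vs. Saline. In Herb vs. OVA, Egr3 had the smallest adjusted p of the 3, at 0.063, with a difference of 0.14 (SE 0.05). With single transcript rows as features and no filter, 1 of the 3 Egr3 rows was called in Herb vs. OVA, at 0.20 higher (adjusted p in limma 0.035), on the few fragments given above. That row was listed at 0 in OVA replicate 3, where another Egr3 row was at 0.12 FPKM. The share of all rows called in this fit was not counted.

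**Figure D1:**
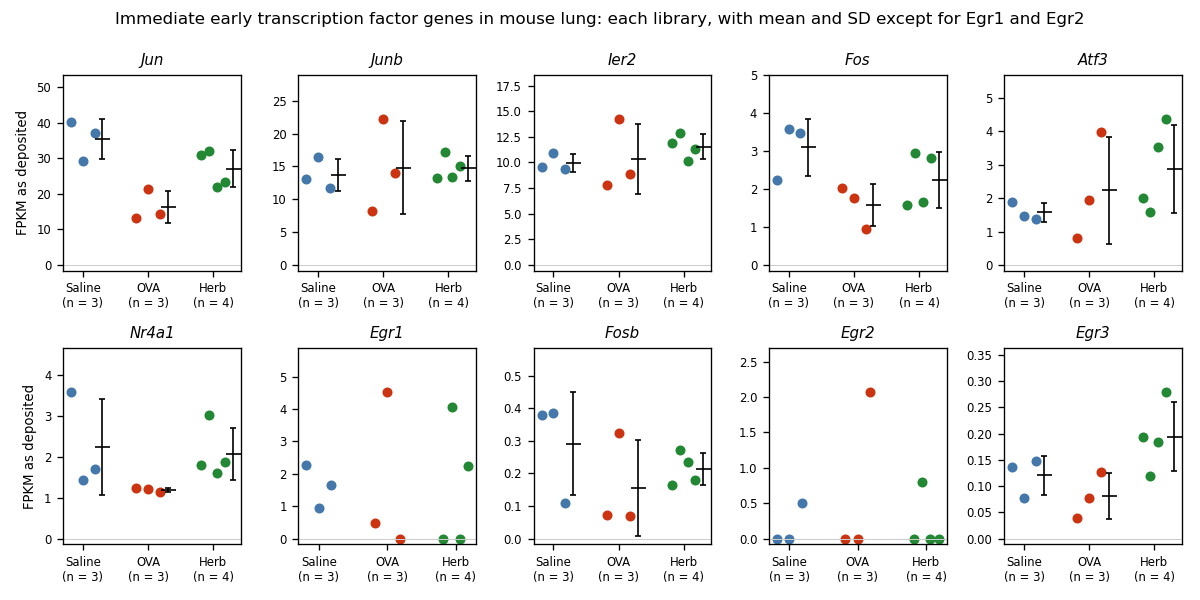
FPKM as deposited of each of the 10 members in every library (points), by group on the horizontal axis, with the mean and SD beside the points except for Egr1 and Egr2, which are listed at 0 in some libraries. Jun in OVA lies at 13.2 to 21.3 FPKM, under the Saline range of 29.2 to 40.1, whereas Junb and Ier2 overlap between groups.

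The first comparison was OVA vs. Saline, which asks what the ovalbumin model changed. As deposited, 61.2% of the 11205 genes tested were called (limma, adjusted p under 0.05 in either direction), 368 higher and 6485 lower. Of the 7 members tested 2 were called, both lower. Jun fell by 1.099 on the log2(FPKM + 1) scale (SE 0.23, adjusted p = 0.0027, 95% interval -1.62 to -0.58), and Fos by 0.68 (SE 0.24, adjusted p = 0.036). The Fos call was lost when Saline replicate 2 or 3 or OVA replicate 2 or 3 was left out (adjusted p 0.105, 0.104, 0.054 and 0.122). Junb had a difference of 0.02 (SE 0.30), Ier2 of 0.01 (SE 0.20), Atf3 of 0.22 (SE 0.38), Nr4a1 of -0.50 (SE 0.25) and Egr1 of -0.35 (SE 0.77), none of which passed. The share of members called was below that of all genes. The median of the 7 differences is the value of Egr1, which rests on a library listed at 0, and the other 6 members had a median of -0.25 against -0.75 for all genes tested.

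**Figure D2:**
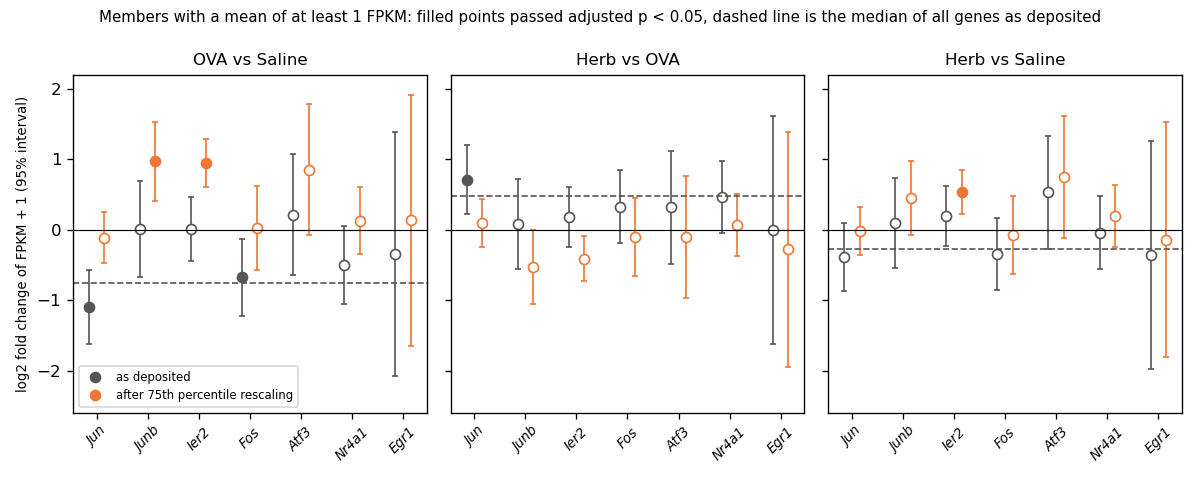
Log2 fold change of FPKM + 1 of the 7 tested members in the 3 comparisons, as deposited (grey) and after 75th percentile rescaling (orange), with 95% intervals, filled where adjusted p was under 0.05. As deposited, Jun and Fos lie below 0 in OVA vs. Saline and Junb and Ier2 at 0.02 and 0.01. After rescaling Junb and Ier2 lie at 0.97 and 0.95.

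After rescaling to the 75th percentile 41.7% of 11176 genes were called, 2328 higher and 2334 lower, and 2 other members passed. Junb was 0.97 higher in OVA (SE 0.25, adjusted p = 0.014) and Ier2 0.95 higher (SE 0.15, adjusted p = 0.0020), in the fit of limma across all genes. Jun was at -0.11 (SE 0.16, adjusted p = 0.60) and Fos at 0.02 (SE 0.26, adjusted p = 0.95), with Atf3 at 0.85 (SE 0.41, adjusted p = 0.13). Which members were called therefore depended on the scaling. The calls of Junb and Ier2 after rescaling were present in all 10 fits that each left out 1 library. Quantile normalization placed Jun 0.58 higher in OVA (adjusted p = 0.020) and Junb 1.40 and Ier2 1.27 higher.

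The difference between OVA and Saline as deposited grew with a gene's level up to 20 to 50 FPKM, on a scale where the added 1 FPKM damps low genes. Its median was -0.34 for the 2808 genes at 1 to 2 FPKM, -1.46 for the 1019 genes at 10 to 20 FPKM and -2.05 for the 357 genes at 20 to 50 FPKM. For the 163 genes at 50 FPKM or more it was -2.01. Junb (10 to 20 FPKM) ranked above 95.2% of the genes of its level class and Ier2 above 95.1% of them. Jun (20 to 50 FPKM) ranked above 85.4% of its class, although its own difference was -1.099. Fos was above 48.9% of the 4442 genes at 2 to 5 FPKM, and Atf3 above 89.9% of them.

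**Figure D3:**
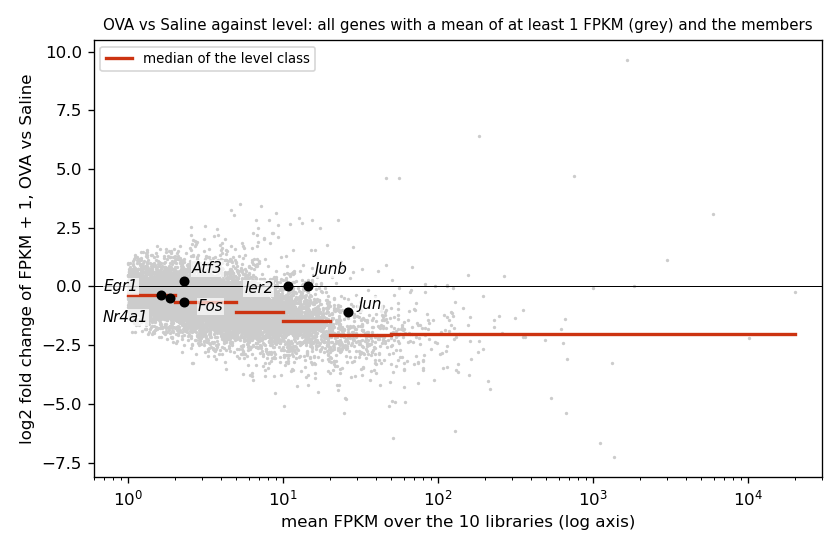
Log2 fold change in OVA vs. Saline as deposited against the mean FPKM over the 10 libraries on a log axis, for all genes with a mean of at least 1 FPKM (grey) and the 7 tested members (black), with the median of each level class as red lines. Junb and Ier2 lie at 0 while the median of their class is -1.46, and Jun at -1.099 lies above its class median of -2.05.

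The 3 highest members had in common that they were single-exon transcripts, and Junb and Ier2 were also GC-rich, at 62.6% and 60.9%, against 55.5% in Jun and 51.9% in Fos. Exon number and GC content were known for 98.6% of the genes tested. Among all genes the median difference in OVA vs. Saline as deposited was -0.40 for the 580 single-exon genes and -0.77 for the 10468 with more exons. For the 547 genes with a GC content of at least 60% it was -0.16, and for the 10501 below that -0.78. Between 5 and 50 FPKM the 14 single-exon genes of at least 60% GC had a median of -0.28 (quartiles -1.13 and 0.01). The part of exon number and GC content in the results on Junb and Ier2 was not tested.

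The second comparison, Herb vs. OVA, addresses the effect of the extract in sensitized mice. As deposited 44.5% of genes were called, 4932 higher and 50 lower, with a median of 0.48. Jun was the 1 member called of 7, at 0.71 higher in Herb (SE 0.22, adjusted p = 0.026, interval 0.22 to 1.202). This call was lost without OVA replicate 1 or 3 or Herb replicate 1 or 2 (adjusted p 0.090, 0.076, 0.067 and 0.065). Nr4a1 (0.47, SE 0.23), Fos (0.33, SE 0.23), Atf3 (0.32, SE 0.35), Ier2 (0.19, SE 0.19), Junb (0.08, SE 0.28) and Egr1 (-0.0037, SE 0.72) did not pass. After rescaling 0.725% of genes were called (81 genes), and 0 of 7 members by limma. An unadjusted p under 0.05 was reached by 1 of the 7 members, beside 3025 of the 11176 genes tested. The member was Ier2, at -0.41 (SE 0.14, adjusted p = 0.11). Junb was at -0.52 (SE 0.23, adjusted p = 0.19) and Jun at 0.10 (SE 0.15, adjusted p = 0.72).

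In Herb vs. Saline, 26.1% of genes were called as deposited, and 0 of 7 members by limma. An unadjusted p under 0.05 was reached by 0 of the 7 members, beside 4557 of the 11205 genes tested. The differences were between -0.39 (Jun) and 0.53 (Atf3, SE 0.35). After rescaling 14.6% of genes were called. Ier2 was the member called, at 0.54 higher in Herb (SE 0.14, adjusted p = 0.038), and this call was lost in 7 of the 10 fits that left out a library, with adjusted p of 0.061 to 0.110 in those fits. Junb was at 0.45 (SE 0.23, adjusted p = 0.21) and Atf3 at 0.75 (SE 0.38, adjusted p = 0.21).

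A ratio of 2 members within a library is free of any scaling by 1 factor per library. Quantile normalization is not of that kind and can change it. Ratios of the 4 highest members were computed after their values had been seen, giving 6 ratios in 3 comparisons, or 18 tests. The ratio of Junb to Jun was 0.325, 0.560 and 0.315 in Saline, 0.618, 1.05 and 0.985 in OVA and 0.428, 0.535, 0.609 and 0.644 in Herb. It was higher in every OVA library than in every Saline library, by 2.23-fold in the geometric mean (two-sided exact permutation test p = 0.1, the smallest that 3 against 3 libraries allow, adjusted p = 0.343). The Ier2 to Jun ratio was 0.237, 0.373 and 0.252 in Saline, 0.594, 0.670 and 0.624 in OVA and 0.387, 0.403, 0.459 and 0.483 in Herb, and the 3 groups did not overlap. It was 2.23-fold higher in OVA than in Saline (exact p = 0.1, adjusted p = 0.343) and 0.686 times the OVA value in Herb (exact p = 0.0571, the smallest that 4 against 3 allow, adjusted p = 0.343). None of the 18 tests passed after adjustment, and the smallest p that the design allowed was 0.1 in OVA vs. Saline and 0.0571 in the comparisons with Herb. The ratio of Junb to Ier2, by contrast, was 1.25 to 1.50 in Saline, 1.04 to 1.58 in OVA and 1.11 to 1.33 in Herb. It differed by -0.0020 on the log2 scale between OVA and Saline (SD 0.34 in OVA and 0.13 in Saline, exact p = 1). The ratio of Fos to Jun also overlapped in all comparisons (0.0556 to 0.123 in Saline, 0.0670 to 0.153 in OVA, 0.0508 to 0.120 in Herb).

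**Figure D4:**
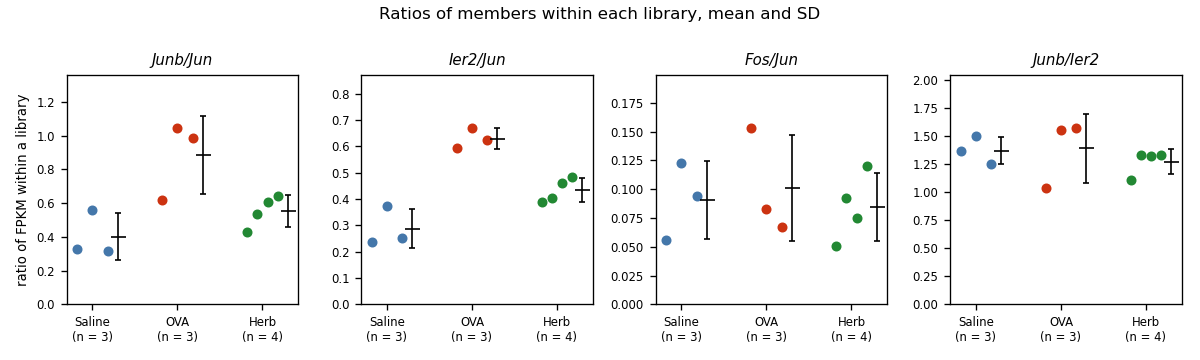
Ratios of FPKM between pairs of members within each library (points) by group, with mean and SD, on axes from 0. Junb/Jun and Ier2/Jun lie higher in all OVA libraries (0.618 to 1.05 and 0.594 to 0.670) than in all Saline libraries, and Fos/Jun and Junb/Ier2 overlap.

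Over the 10 libraries, rescaled levels of Junb and Ier2 moved together most closely (Pearson r = 0.93 on log2(FPKM + 1), 0.83 after the group means were removed). They share library, depth and GC content, and the value is a description. The other pairs were lower, from 0.59 for Junb and Atf3 to -0.47 for Jun and Atf3, with a median over the 21 pairs of 0.10. As deposited the median was 0.32. Jun and Junb were at -0.14 and Jun and Fos at -0.16 after rescaling. The genes whose pattern was most like the mean standardised profile of the 7 members were Tbc1d9 (r = 0.89), Serpina3h (0.84), Vps9d1 (0.83), Mpnd (0.83), Tfpt (0.82), Nfil3 (0.82), Gm16740 (0.82), Ncor1 (0.82), Loh12cr1 (0.82) and 1810032O08Rik (0.81), on rescaled values. As deposited r was 0.32 to 0.90 for these 10 genes. Among these Nfil3 encodes a bZIP transcription factor and Ncor1 a nuclear receptor co-repressor. Egr1, listed at exactly 0 in 3 libraries, was among the 7 members of the profile and in the 21 pairs. Its zeros, which may be failed estimates, entered these values, and their part was not tested.

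Related genes were counted in lists, and each count is to be read beside the shares of all genes tested. In OVA vs. Saline these were 3.28% higher and 57.9% lower as deposited, and 20.8% higher and 20.9% lower after rescaling. In Herb vs. OVA they were 44% higher and 0.446% lower as deposited, and 0.367% higher and 0.358% lower after rescaling. In the wider AP-1 family 10 of 13 genes passed the filter, and in OVA vs. Saline as deposited 2 were higher and 7 lower. Batf3 was among those higher (1.17, adjusted p = 0.017), and Mafk (-1.74, adjusted p = 1.7e-04), Atf2 (-1.37, adjusted p = 9.0e-04), Maff (-1.28, adjusted p = 0.0024) and Fosl2 (-1.148, adjusted p = 0.0027) had the smallest adjusted p. After rescaling 3 were higher, among them Batf3 (1.61) and Jund (1.149), the Jun family member that is constitutively expressed, and Mafk was lower (-0.84). In Herb vs. OVA as deposited Mafk (0.79) and Fosl2 (0.85) were called higher, and none were called after rescaling. Batf3 and Jund were named after their values had been seen.

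Of 35 other immediate early genes tested, 0 were higher and 22 lower in OVA vs. Saline as deposited, with a median of -1.19 against -0.75 for all genes. The smallest adjusted p were those of Btg1, an antiproliferative gene (-1.82, adjusted p = 2.2e-04), Thbs1 (-1.89), Hbegf (-1.45) and Sgk1 (-2.45). After rescaling 6 were higher and 8 lower, and these included Ctgf, the connective tissue growth factor gene (-2.58) and Sgk1 (-1.62) on the low side, and Gadd45g (1.28), Socs3 (1.04), Myc (1.03), Cebpb (0.90), Ier5 (0.71) and Ier5l (0.53) on the high side. Cyr61 was counted as lower on both scales (-2.96 and -2.57). It was listed at 0 in all 3 OVA and in 2 Herb libraries, and an exact 0 may be a failed estimate. As deposited, 12 of the 35 genes were higher and 0 lower in Herb vs. OVA, with the smallest adjusted p in Btg1 (1.27) and Trib1 (0.69). The list median was 0.69, against 0.48 for all genes. After rescaling none were called. Genes above other than Btg1, Thbs1, Hbegf, Sgk1 and Trib1 were chosen after their values had been seen.

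Beside shares of 57.9% lower and 3.28% higher among all genes, 10 of 15 feedback regulators of MAP kinase and NF-kB signals were lower in OVA vs. Saline as deposited and 0 higher. Among the 10 were Spred1 (-1.55, adjusted p = 2.8e-04), Errfi1, an inhibitor of EGF receptor kinases (-3.37), Spred2 (-1.26) and Spry1 (-2.11). The 10 also included Dusp6 (-2.30), for which OVA replicate 3 was listed at 0, possibly a failed estimate. After rescaling 4 remained lower, which were Errfi1 (-2.48), Spry1 (-1.27), Spred1 (-0.61) and Spred2 (-0.46), and 2 were higher, Tnfaip3 (0.99), which terminates NF-kB signalling, and Dusp5 (0.90), a nuclear ERK phosphatase. Of the 15, 6 were higher in Herb vs. OVA as deposited, with Spry4 at 1.39 and Spred1 at 0.92, and none were called after rescaling.

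Upstream kinases and SRF, TCF and CREB factors were lower in 10 of 19 in OVA vs. Saline as deposited and higher in 0, beside 57.9% lower and 3.28% higher among all genes. Among those with the smallest adjusted p were Mkl2 (-1.27, adjusted p = 3.2e-04), Mapkapk2 (-1.33) and Mapk3 (-1.48). After rescaling, of 18 tested, 4 were lower (among them Mapk3, Mapk9 and Mkl2) and 3 higher, which were Srf (0.74), its coactivator Mkl1 (0.94) and Map2k2 (0.76). The heat shock list was named for induction by tissue handling, which was not measured here. In OVA vs. Saline as deposited 5 of its 9 tested genes were lower and 0 higher, beside the same shares. Hspa8 in this list was at 0 in 2 libraries of each group, where an exact 0 may be a failed estimate. After rescaling Hspa1a (1.28) and Hspa1b (1.44), near-identical copies whose reads cannot be told apart with certainty, were higher, and Hspe1 (-1.07), Hspd1 (-0.71) and Hspb1 (-1.21) lower. As deposited 6 upstream genes were higher in Herb than in OVA, among them Mapkapk2 (1.03), as were 5 heat shock genes, among them Hspd1 (1.52) and Hspe1 (1.25). After rescaling 0 upstream genes and 1 heat shock gene were called higher. In Herb vs. Saline as deposited the AP-1 list had 1 gene higher and 4 lower, the other immediate early genes 0 and 7, the feedback regulators 0 and 4, the upstream list 0 and 4 and the heat shock list 0 and 1, beside 3.32% higher and 22.7% lower among all genes. After rescaling these became 2 and 1, 3 and 3, 1 and 0, 2 and 1, and 0 and 0, beside 7.86% and 6.79% of all genes. The EGR, NR4A and NAB list had 2 genes tested, Nab1 (0.08 in OVA vs. Saline) and Nab2 (-0.19), and neither passed.

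**Figure D5:**
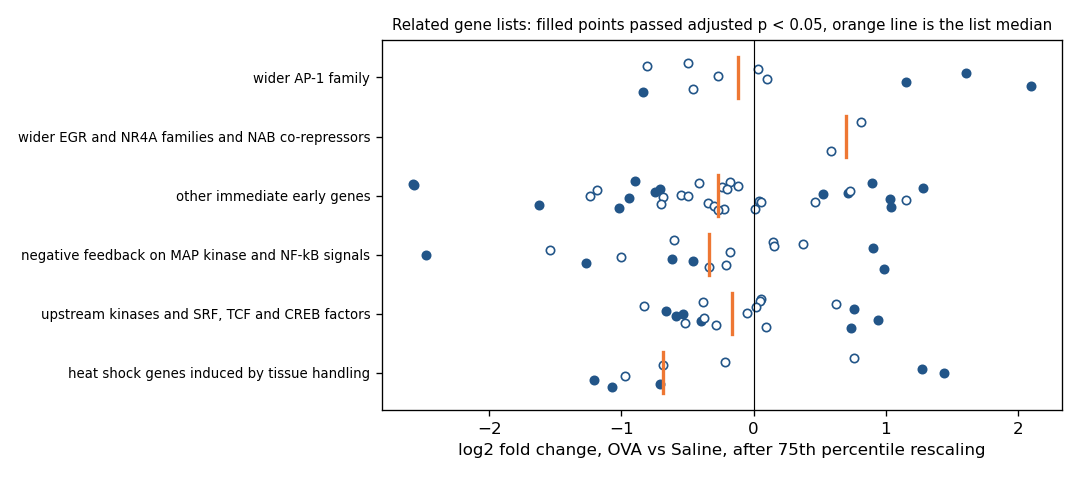
Log2 fold change in OVA vs. Saline after 75th percentile rescaling for the tested genes of 6 related lists (points, filled where adjusted p was under 0.05) with the list median in orange. Each of the lists other than the EGR, NR4A and NAB list holds genes called in both directions, and medians lie between -0.69 for heat shock genes and 0.70 for the latter list.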

How the data were processed

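RNA-seq of 10 lungs was analysed from 1 table. Per the labels and the methods, the authors trimmed reads with cutadapt 1.10, aligned them to mm10 with HISAT2, assembled transcripts with StringTie 1.3.3b and deposited FPKM from ballgown (fragments per kilobase, scaled to mapped fragments). The authors ran edgeR on counts that were not used here. No read totals were used, and depth was estimated from the steps of the lowest FPKM. The methods give each group as a number of mice, and the labels only number the replicates, so p-values measure the spread between these libraries.

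FPKM was summed per symbol and tested with limma 3.58.1 in R 4.3.3 (lmFit, eBayes with trend) on log2(FPKM + 1) with the 3 groups fitted jointly over the 10 libraries, for genes with a mean of at least 1 FPKM, with Benjamini-Hochberg adjustment and a threshold of 0.05. Fold changes of low genes are damped by the added 1 FPKM. Ratios and permutation tests used scipy 1.17.1, and exon counts came from GENCODE. FPKM carries the composition of the library, and therefore rescaling to a common 75th percentile was set beside the values as deposited.

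Members and gene lists were chosen with earlier results of these data known. All members are named, and for each list up to 4 genes with the smallest adjusted p in OVA vs. Saline and up to 2 in Herb vs. OVA, with the 10 genes most alike. Some genes of the lists are counted but not reported here by name. Replicate numbers did not pair the libraries: the correlation of deviations from the group means was -0.0087 to 0.095 over the 9 same-numbered pairs. Alternatives were another pseudocount, filter, scaling and model, a replicate block (fitted without Herb replicate 4), single rows and leaving out each library.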

Additional observations from a re-analysis of the deposited data

Results flagged for a closer look

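Egr2 stood apart in 1 Herb library, at 0.801 FPKM in replicate 2, while the other 3 Herb libraries were listed at 0. With 3 libraries at exactly 0 the gap between the highest library and the nearest of the others is the whole range of the group by construction, and an exact 0 in this table can be a failed estimate. Egr2 was likewise listed at 0 in all but 1 library of the Saline and OVA groups, which are too small for this criterion.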

How the results depend on the processing

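The scaling decided most member results. In OVA vs. Saline, Fos moved from -0.68 to 0.0248 (75th percentile) and 0.39 (sum of protein-coding rows), Jun from -1.099 to 0.38 (sum) and 0.58 (quantile normalization), Egr1 from -0.35 to 0.13, 0.38 and 0.0658 and Nr4a1 from -0.50 to 0.13, 0.44 and 0.0062 (75th percentile, sum and quantile). In Herb vs. OVA the same 3 scalings gave -0.10, -0.26 and -0.11 for Fos, -0.52, -0.73 and -0.78 for Junb, -0.10, -0.25 and -0.14 for Atf3 and -0.41, -0.62 and -0.62 for Ier2, against positive values as deposited. The sum gave -0.11 for Jun and -0.0768 for Nr4a1, and quantile normalization -0.18 for Jun. In Herb vs. Saline the sum gave 0.13 for Fos and 0.27 for Jun, quantile normalization 0.40 for Jun, and the 3 scalings 0.20, 0.36 and 0.0724 for Nr4a1. Without a filter, an alternative added after seeing the data together with rescaling gave 0.00247 and 0.0382 for Fosb and Egr3 in OVA vs. Saline and -0.0103 for Fosb in Herb vs. OVA. The cause was not tested beyond the construction of each scaling.

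Members called in OVA vs. Saline numbered 1 without a filter, 1 with a filter at 5 FPKM (3 members tested) and 1 with single rows as features, against 2. They numbered 3 under the sum (Atf3, Junb and Ier2, all higher, with Atf3 at 1.16 and adjusted p = 0.041) and 3 under quantile normalization (Jun, Junb and Ier2, all higher). In Herb vs. OVA the sum called 1 member, but Ier2 and lower (-0.62, adjusted p = 0.043) in place of Jun. There they numbered 0 after 75th percentile rescaling (0 also without a filter), 0 after quantile normalization and 0 under the replicate block, where Jun was at 0.78 (adjusted p = 0.055), against 1. The block fit also left out Herb replicate 4. Without that library and without a block Jun was likewise at 0.78 (adjusted p in limma 0.034). In Herb vs. Saline the members called numbered 1, 2 and 1 under the 75th percentile, sum and quantile scalings, against 0. Over all genes, Herb vs. OVA had 4982 calls (44.5% of genes) as deposited, 81 (0.725%) after 75th percentile rescaling, 708 (6.29%) by the sum and 157 by quantile normalization. In the same order, OVA vs. Saline had 6853 (61.2% of genes), 4662 (41.7%), 5387 (47.9%) and 4004 calls. Herb vs. Saline had 2921 (26.1%), 1637 (14.6%), 2464 (21.9%) and 841. Quantile normalization tested the same 11205 genes as the values as deposited. By the sum, 4409 genes were called higher and 978 lower in OVA vs. Saline, 78 and 630 in Herb vs. OVA, and 2143 and 321 in Herb vs. Saline. The members called by the sum went in the direction of most genes called. Without a filter OVA vs. Saline had 7595 calls, with a filter at 5 FPKM 3180, and with single rows 13331 of 30194 rows. A filter changes the number of genes tested, so the first 2 counts cannot be read as shares of the same genes. The replicate numbers did not pair the libraries, and the replicate block changed no other count of members called.

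Leaving out 1 library at a time, 1 to 2 members were called in OVA vs. Saline, 0 to 2 in Herb vs. OVA and, after rescaling in Herb vs. Saline, 0 to 1. Over all genes these fits called 6118 to 6839, 3221 to 5070 and 32 to 1932 genes. Nr4a1 was called in OVA vs. Saline without Saline replicate 2 (-0.68, adjusted p = 0.049) and in Herb vs. OVA without Saline replicate 1 (0.47, adjusted p = 0.049), and Ier2 in Herb vs. OVA without OVA replicate 2 (0.42, adjusted p = 0.043), each by limma. Over the same leave-outs in OVA vs. Saline, Junb was -0.31 to 0.36, Egr1 -1.07 to 0.16, Atf3 -0.15 to 0.58 and Ier2 -0.22 to 0.17. In Herb vs. OVA, Junb was -0.26 to 0.41, Egr1 -0.51 to 0.72 and Atf3 -0.0452 to 0.69. In Herb vs. Saline, Junb was -0.000715 to 0.23 and Nr4a1 -0.21 to 0.24. Depth limits Fosb and Egr3, which rest on few fragments, and Egr2 is limited by its 7 libraries listed at 0. The likeness of members moved by less than its spread over pairs when FPKM was used as deposited.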
